A study of Homo sapiens with 6 samples.

Results

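Broad H3K4me3 domains are stretches of at least 2000 bp that carry trimethylated lysine 4 of histone H3 without a break in a peak list. They were taken from the H3K4me3 peak regions of H82 and H524, 2 human small cell lung cancer cell lines, after identical intervals had been merged. The width minimum kept 1219 of 18208 regions in H82 (6.69%) and 471 of 18595 regions in H524 (2.53%), which is 1690 of 36803 in all. Each domain was then placed in 1 of 3 classes, by whether it overlapped a domain in the other line, narrower regions alone, or no region there. Widths of the H3K4me3 regions made this selection, so counts, widths, classes and scores below are a description with no test, and NeuroD1 is the measure that the selection did not use.

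H82 and H524 are established lines that were grown untreated in RPMI medium with fetal bovine serum. Chromatin from each line was sonicated and precipitated with an antibody to H3K4me3 or an antibody to the transcription factor NeuroD1, and the DNA was sequenced. H82 NeuroD1, H82 H3K4me3, H524 NeuroD1 and H524 H3K4me3 each had 1 library, and the input library of each line was not analysed here. With 1 library for each antibody and line there is no measure of replicate spread, no test between lines is possible, and each line stands only for itself. Intervals are 95% Clopper-Pearson intervals for shares and 95% Newcombe intervals for differences. They cover counting error over regions alone, and the number of reads behind each list is unknown.

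H3K4me3 is written by the SET1 and MLL (KMT2) methyltransferase complexes and marks active and poised promoters, above all those rich in CpG. At most genes the mark is a short peak around the transcription start, whereas at some genes it runs on into the gene body, and such broad domains are known at genes that define a cell's identity and at tumour suppressor genes. NeuroD1 is a basic helix-loop-helix factor that drives neuronal and endocrine differentiation, pairs with E-proteins on E-box motifs and defines a subtype of small cell lung cancer to which both lines are assigned in the field.

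Promoter sequences are shown for 4 genes that carry the contrasts described below. OTX2 lay in the widest domain of both lines, NEUROD1 encodes the factor that was precipitated, NEUROD4 had a domain in both lines, and NKX2-1 had a domain in H524 and no region in H82. Each is given 5′ to 3′ on the gene's strand, from 250 bases before to 50 bases after the start, from RefSeq on GRCh38.p14, with every CpG in capitals. OTX2 is chr14:56810430-56810729 on the minus strand, NEUROD1 is chr2:181680468-181680767 on the minus strand, NEUROD4 is chr12:55019724-55020023 on the plus strand and NKX2-1 is chr14:36520183-36520482 on the minus strand.
OTX2: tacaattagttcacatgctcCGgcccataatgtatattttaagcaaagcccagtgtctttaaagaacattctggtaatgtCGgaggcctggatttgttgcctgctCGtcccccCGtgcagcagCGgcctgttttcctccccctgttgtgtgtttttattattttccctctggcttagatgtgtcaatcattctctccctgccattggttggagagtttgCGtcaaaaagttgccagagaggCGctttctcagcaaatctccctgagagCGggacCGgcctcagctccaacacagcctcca
NEUROD1: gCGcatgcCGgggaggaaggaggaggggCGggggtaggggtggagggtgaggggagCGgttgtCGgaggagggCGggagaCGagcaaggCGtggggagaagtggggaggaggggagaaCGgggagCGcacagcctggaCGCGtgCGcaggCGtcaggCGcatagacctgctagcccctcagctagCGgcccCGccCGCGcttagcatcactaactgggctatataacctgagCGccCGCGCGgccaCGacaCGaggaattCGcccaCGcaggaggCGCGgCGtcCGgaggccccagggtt
NEUROD4: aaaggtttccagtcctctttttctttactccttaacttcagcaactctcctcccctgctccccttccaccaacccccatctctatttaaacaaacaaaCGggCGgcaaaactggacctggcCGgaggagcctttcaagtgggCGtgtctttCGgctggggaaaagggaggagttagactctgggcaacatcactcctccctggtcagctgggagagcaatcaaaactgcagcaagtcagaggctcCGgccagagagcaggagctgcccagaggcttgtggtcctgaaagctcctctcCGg
NKX2-1: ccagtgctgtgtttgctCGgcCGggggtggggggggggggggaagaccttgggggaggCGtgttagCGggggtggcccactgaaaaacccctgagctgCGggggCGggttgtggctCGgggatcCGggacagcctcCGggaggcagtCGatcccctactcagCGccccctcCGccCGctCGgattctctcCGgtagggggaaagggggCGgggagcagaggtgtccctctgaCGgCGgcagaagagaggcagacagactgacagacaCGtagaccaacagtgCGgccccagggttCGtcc
The 4 promoters differed in CpG content. NEUROD1 had 31 CpG and NKX2-1 had 21, whereas OTX2 had 9 and NEUROD4 had 7, against a median of 14 over 27305 RefSeq promoters of the same length, of which 95.8% held at least 1. The E-box spelling CAGATG was searched on both strands, as was the spelling CAGCTG, which reads the same on each, and neither can be the other at the same place. They were found in 1 of the 4 windows. That match was a single CAGCTG at position -46 of NEUROD4, and 14.8% of all promoters held CAGATG, 17.7% held CAGCTG and 29.7% held either. Other coordinates below are hg19, the build of the peak lists, counted from 1.

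Widths ran on without a gap between the narrower regions and the domains of each line. The median width was 2535 bp over H82 domains, against quartiles of 355 to 881 bp over the narrower H82 regions. Over H524 domains it was 2366 bp, against quartiles of 349 to 826 bp over the narrower H524 regions. Domains made up 23.3% of the length covered by H3K4me3 in H82 (3484 kb) and 9.57% in H524 (1237 kb). The excess in H82 grew with width, with 358 H82 regions against 89 H524 regions at 3000 bp or more, and 107 against 22 at 4000 bp or more. At 6000 bp or more there were 25 regions in H82 and 3 in H524.

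**Figure D1:**
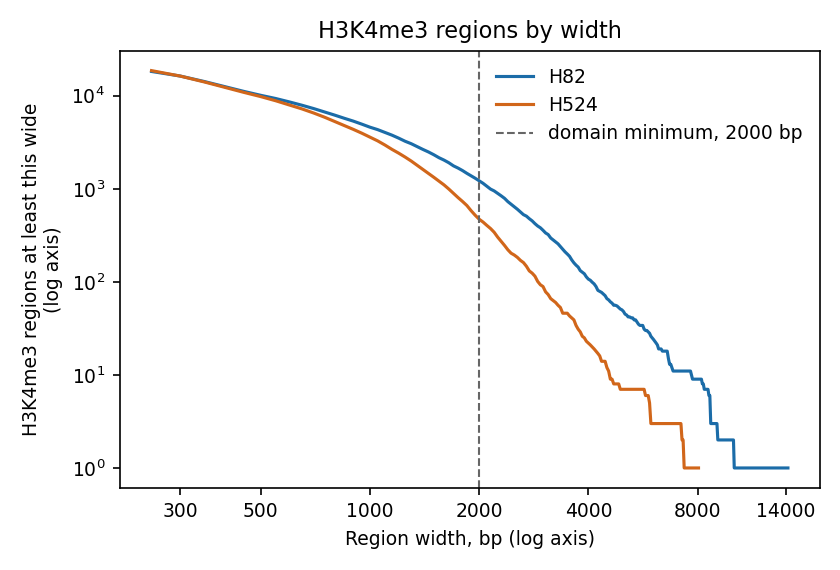
Number of H3K4me3 regions at least as wide as the value on the x axis (bp), in H82 and H524, both axes logarithmic, with 1 library per line. The curves lie close together at the left, where they count 18208 and 18595 regions, and are apart at the 2000 bp line, where they count 1219 and 471.

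Nothing set the domains off at the width minimum itself. The narrowest H82 domains were 2000, 2001 and 2002 bp wide, and the next widest H82 regions fell short of 2000 bp by 1, 2 and 2 bp. In H524 the narrowest domains were 2000, 2000 and 2001 bp wide and the widest regions left out were 1998, 1996 and 1996 bp wide. ZEB2, which encodes a repressor of epithelial genes, was at the H82 domain of 2001 bp (chr2:145275787-145277787).

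Most domains were several summits joined into 1 region. The median was 4 summits in the domains of either line, and 96.1% of H82 domains and 97.2% of H524 domains had more than 1 summit, against 17.1% of narrower regions in H82 and 17.7% in H524. The authors gave a peak score for each summit, read here as −log10 of an adjusted p-value, and a region was given the highest score among its summits. That score placed the median H82 domain at the 91.1 percentile of its list and the median H524 domain at the 90.2 percentile. The highest score was taken over more summits in domains than in narrower regions, and its part in these percentiles was not tested.

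Of the 1219 H82 domains, 177 overlapped a domain in H524 (14.5%, interval 12.6 to 16.6%), 910 overlapped narrower regions alone (74.7%, 72.1 to 77.1%) and 132 overlapped no H524 region (10.8%, 9.14 to 12.7%). Of the 471 H524 domains, 178 overlapped a domain in H82 (37.8%, 33.4 to 42.3%), 252 overlapped narrower regions alone (53.5%, 48.9 to 58.1%) and 41 overlapped none (8.70%, 6.32 to 11.6%). Over all regions, 3.48% of those in H82 overlapped an H524 domain and 8.78% of those in H524 overlapped an H82 domain. Any overlap with H3K4me3 of the other line was found for 52.4% of all H82 regions and 52.9% of all H524 regions. The domains that overlapped a domain were nearly equal in number, 177 in H82 and 178 in H524, while the totals were 1219 and 471. The unequal shares are thus near-equal counts over unequal totals. Among the 471 widest regions of each line, 19.3% of those in H82 and 19.7% of those in H524 overlapped a region of the other set. Sets of equal size give near-equal shares almost by construction, so this count cannot show why the lines differ, which was not tested.

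**Figure D2:**
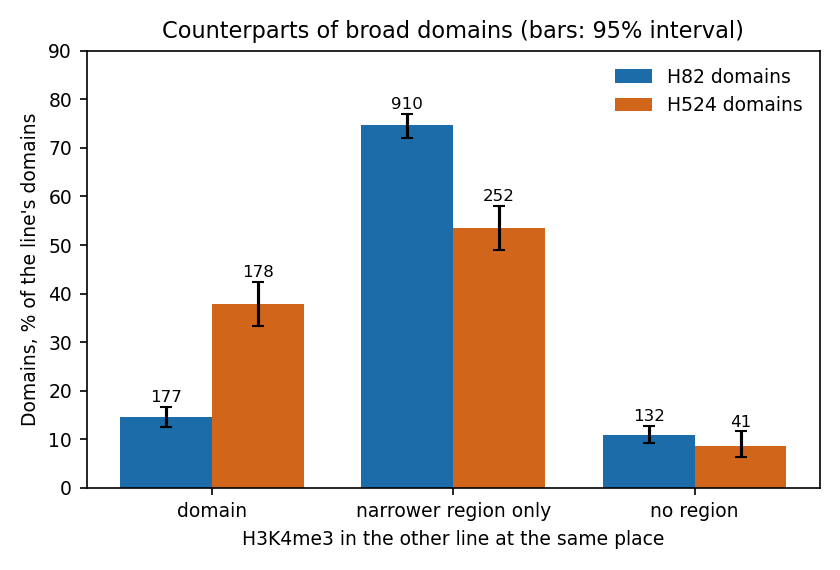
Share of each line's domains (y axis, %) by what the other line had at the same place (x axis), with the number of domains above each bar and the 95% interval of the share as the error line. A narrower region in the other line is the most frequent class in both lines, with 910 of 1219 H82 domains and 252 of 471 H524 domains.

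Where the other line had narrower regions alone, these were often broken or clearly shorter. The widest H524 counterpart of an H82 domain had a median of 1015.5 bp, and the widest H82 counterpart of an H524 domain had a median of 1160 bp. Counterparts of 1500 bp or more, just short of the minimum, accounted for 193 of these H82 domains (21.2%) and 64 of these H524 domains (25.4%). At least 2 separate counterparts lay under 45.8% of these H82 domains and 54.4% of these H524 domains. The counterparts covered a median of 45.3% of an H82 domain and 55.6% of an H524 domain.

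Domains present in both lines formed 179 overlapping pairs, since a few domains met 2 in the other line. The domains of either line merged to 1511 distinct places. The H82 domain was the wider member in 117 pairs and the H524 domain in 62, and the median width was 2797 bp for the H82 members and 2562 bp for the H524 members. The median ratio of widths was 1.11 (0.15 on the log2 scale). Both domains mostly covered the same ground, a median of 99.3% of the shorter domain being shared. Across the pairs, the correlation of log2 widths (Pearson r 0.450, Spearman rho 0.307) is given as a description because the pairs come from a single library per line and were chosen by width in both.

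**Figure D3:**
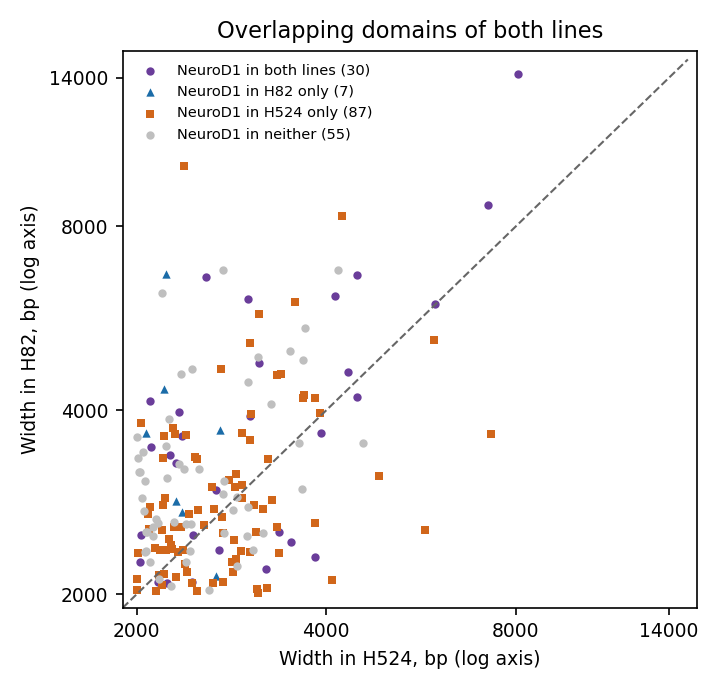
Width of each of the 179 overlapping domain pairs in H82 (y axis, bp) and in H524 (x axis, bp), both axes logarithmic, with the symbol giving NeuroD1 overlap and the dashed line equal width. Of the pairs, 117 lie above the line and 62 below it, and OTX2 is the point at the upper right, with 14203 bp in H82 and 8052 bp in H524.

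Gene names in what follows were attached by hand, because the peak lists name no genes: a table of hg19 gene starts for 346 genes, rounded to 1 kb, was written from general knowledge and not read from an annotation, and a region was given a gene when the start lay within 1 kb of it. Where a region met several in the other line, the width given for that line is the widest, unless said otherwise. A region given by coordinates alone had no start from that table, which does not mean that it holds no gene.

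The widest domain of both lines was at OTX2, which encodes a homeodomain factor of forebrain and retina. It spanned 14203 bp with 27 summits in H82 (chr14:57269304-57283506) and 8052 bp with 15 summits in H524 (chr14:57276218-57284269), and each held 5 NeuroD1 regions of its own line, the most of any domain in either line. MYC, the growth-promoting oncogene, had 8664 bp in H82 (chr8:128746175-128754838) and 7212 bp in H524 (chr8:128746165-128753376), with 1 NeuroD1 region in each line. PVT1, a noncoding neighbour of MYC, had 3660 bp and no NeuroD1 region in H82, against 7307 bp and 4 NeuroD1 regions in H524. The PVT1 domain had the highest score of all H524 regions, at 385. Copy number was not examined, since the input libraries were not analysed, and its part in the widths, scores and NeuroD1 counts here was not tested. In the 1 Mb stretch of chromosome 8 that holds MYC and PVT1, H82 had 6 domains, 5 of them with NeuroD1, and H524 had 2, both with NeuroD1.

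EYA1, which encodes a transcriptional co-activator with phosphatase activity, differed more between the lines. Its domain spanned 10053 bp in H82 and met 4 H524 regions, the widest of 2379 bp. That H82 domain held no NeuroD1 region of H82 and 5 NeuroD1 regions of H524. DLEU1, a noncoding gene of chromosome 13, had 8322 bp in H82 and 4232 bp in H524, while TSC22D2 had 6782 bp in H82 over 2 H524 domains of 2741 and 4174 bp that covered 94.6% of it. Widths were closer at TRA2B, a splicing factor gene, which had 5979 bp in H82 and 5941 bp in H524. PPP1R15B, which encodes a subunit of the phosphatase that reverses eIF2α phosphorylation, had 5218 bp in H82 and 5934 bp in H524. KLHL28 had 2548 bp in H82 and 5728 bp in H524, while SLC39A9, a zinc transporter gene, had 3128 bp in H82 and 4858 bp in H524.

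The widest H82 domains with narrower H524 regions alone were at KMT2E, ESRRG, an unnamed place on chromosome 8, TBC1D23 and ARL6. KMT2E, which encodes a chromatin protein of the MLL family, had 8569 bp in H82 and a widest counterpart of 1837 bp in H524. ESRRG, an orphan nuclear receptor gene, had 7721 bp in H82, and a single H524 region of 266 bp covered 3.45% of it. The place on chromosome 8 (chr8:128333107-128340787) had 7681 bp in H82 and 403 bp in H524. TBC1D23 had 6848 bp in H82 and 396 bp in H524, while ARL6, a ciliary GTPase gene, had 6642 bp in H82 and 1572 bp in H524.

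The widest H524 domains with narrower H82 regions alone included those at EPHA6, AMD1, an unnamed place on chromosome 6 and TNIK. EPHA6, an ephrin receptor gene, had 929 bp in H82 and 5850 bp in H524. AMD1, an enzyme gene of polyamine synthesis, had 4675 bp in H524, over 3 H82 regions that covered 53.6% of it, the widest of 1634 bp. The place on chromosome 6 (chr6:127836831-127841429) had 4599 bp in H524, over 3 H82 regions that covered 74.4% of it, the widest of 1611 bp. TNIK, a kinase gene of Wnt signalling, had 4303 bp in H524, over 3 H82 regions that covered 45.1% of it, the widest of 1146 bp.

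Domains without any H3K4me3 region in the other line were rarer. The nearest H524 region was a median of 66.4 kb from the 132 such H82 domains, and the nearest H82 region was a median of 113 kb from the 41 such H524 domains. It was within 1 kb for 15 of these H82 domains and 3 of these H524 domains, and more than 100 kb away for 55 in H82 and 21 in H524. The widest in H82 were at IMPG2, a photoreceptor matrix gene (9065 bp, chr3:101031895-101040959), at chr8:128342247-128350925 (8679 bp, 3 NeuroD1 regions), at chr17:20773228-20781892 (8665 bp, 2 NeuroD1 regions), at chr7:9221224-9229439 (8216 bp) and inside RTN1, a neuronal reticulon gene (5881 bp, 2 NeuroD1 regions). The widest in H524 were at KCNJ3, a potassium channel gene (4549 bp, chr2:155555289-155559837, 2 NeuroD1 regions), inside PAX9, a paired box gene of tooth and thymus development (3883 bp), at chr14:36977352-36980657 (3306 bp, 2 NeuroD1 regions), at chr8:127162630-127165804 (3175 bp) and at chr4:4866655-4869735 (3081 bp).

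Among the 303 placed genes of the gene lists, 42 had a domain in H82 (13.9%), 23 had one in H524 (7.59%) and 14 had one in both. A narrower region was at 156 of them in H82 and 202 in H524, and no region at 105 in H82 and 78 in H524. These lists were chosen with earlier results of these data known, so their counts describe the lists and are no evidence of a preference for a kind of gene.

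Among 5 subtype-defining factors, NEUROD1 alone had a domain, and it had one in both lines. It spanned 4783 bp with 1 NeuroD1 region in H82 (chr2:182540510-182545292) and 3125 bp with 2 NeuroD1 regions in H524 (chr2:182542145-182545269). POU2F3, the tuft cell factor, had no region in either line. ATOH1 had a narrower region in both lines (515 bp in H82, 655 bp in H524), and YAP1, a Hippo pathway co-activator, had none in H82 and 822 bp in H524.

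Of 54 neurogenic transcription factors, 6 had a domain in H82 (11.1%) and 8 in H524 (14.8%), against 13.9% and 7.59% of all placed list genes. The 3 with a domain in both lines were OTX2, NEUROD4 and NHLH1. NEUROD4, a relative of NEUROD1, had 6013 bp and no NeuroD1 region in H82, against 3571 bp and 1 NeuroD1 region in H524. NHLH1, a neuronal helix-loop-helix factor, had 4895 bp in H82 and 3111 bp in H524, with no NeuroD1 region of the same line in either. The remaining H82 domains were at SIX3, a forebrain and eye homeobox gene (2253 bp with 2 NeuroD1 regions, against 1325 bp in H524), MEIS1, a homeobox gene (3761 bp, against 1891 bp in H524), and SCRT1, a neuronal repressor gene (2618 bp, against 1788 bp in H524).

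In H524 the remaining neurogenic domains included those at NKX2-1, INSM2, SOX11 and ZIC1. NKX2-1, the lung and thyroid lineage factor, had 2954 bp with 1 NeuroD1 region in H524 and no region in H82. INSM2, a zinc finger gene, had 2431 bp in H524, and the widest H82 region under that domain was 402 bp. SOX11 had 1872 bp in H82 and 2633 bp in H524, while ZIC1 had 433 bp in H82 and 2595 bp in H524. INSM1, a zinc finger repressor that marks neuroendocrine tumours, was examined after its values had been seen: an H524 domain of 2872 bp with 3 NeuroD1 regions of H524 lay in the gene but not within 1 kb of the start used (chr20:20350270-20353141), and its widest H82 counterpart was 1288 bp.

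Of 37 neuroendocrine genes, 1 had a domain in H82 (2.70%) and 2 in H524 (5.41%), against 13.9% and 7.59% of all placed list genes. A narrower region was at 22 of them in H82 (59.5%), against 51.5% of all placed list genes. In H524 it was at 26 (70.3%), against 66.7% of all placed list genes. SYT4, a synaptotagmin gene, was the H82 case (2663 bp, against 1905 bp in H524). CHGA, the chromogranin A gene, had no region in H82 and a domain of 2113 bp in H524, and SNAP25, a gene of vesicle fusion, had 1289 bp in H82 and 2562 bp in H524. Of 26 marker genes of blood, endothelial and fibroblast cells, none had a domain in either line, and 0 had a region in H82 and 3 in H524 (CD8A, CD14 and COL1A1). Of 32 non-neuroendocrine genes, 2 had a domain in H82 (ZEB2 and AMOTL2) and 0 in H524.

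Of 53 placed tumour suppressor genes, 12 had a domain in H82 (22.6%), 3 in H524 (5.66%) and 2 in both, against 13.9% in H82 and 7.59% in H524 over all placed list genes. RB1, the cell cycle brake lost in most small cell lung cancers, had 2906 bp in H82 and 384 bp in H524, while SMAD4, the common mediator of TGF-β signals, had 3328 bp in H82 and 466 bp in H524. The chromatin remodelling genes ARID1A and PBRM1 had 2853 and 2860 bp in H82, against 1144 and 1342 bp in H524. The cyclin-dependent kinase inhibitor gene CDKN2C had 2531 bp in H82 and 3092 bp in H524, with 3 NeuroD1 regions in H524 and 0 in H82. CDKN1B had 2284 bp in H82 and 2871 bp in H524, while CDKN2A had 719 bp in H82 and 2158 bp in H524. The lines differed in the same direction over all regions, and whether they differ more at these genes was not tested.

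Genes that every cell uses also had domains. Of 25 housekeeping genes, 7 had one in H82 (28.0%) and 2 in H524 (8.0%), against 13.9% and 7.59% of all placed list genes. Both H524 cases, TFRC and PKM, also had one in H82. TFRC, the transferrin receptor gene, had 2096 bp in H82 and 2159 bp in H524, while PKM, a glycolytic kinase gene, had 2517 bp in H82 and 2739 bp in H524. Of 22 ribosomal protein genes, 6 had a domain in H82 (27.3%) and 3 in H524 (13.6%), the 3 being RPL4, RPLP1 and RPS2 and all having one in both lines. Of 38 chromatin regulators, 4 had a domain in H82 (10.5%) and 2 in H524 (5.26%). Among them JARID2, a subunit of the Polycomb complex PRC2, had 2526 bp in H82 and 3361 bp in H524. Of 11 genes of the MYC family and its partners, MYC, PVT1 and MNT, a MYC antagonist, had a domain in H82 (27.3%), and MYC and PVT1 had one in H524 (18.2%).

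Promoter GC content was close between listed genes with and without a domain, and above the median of 58.3% over all RefSeq promoters. Median GC content was 61.7% for 32 genes with an H82 domain, 64.3% for 121 with a narrower region and 63.3% for 77 with none. In H524 it was 63.3% for 17 genes with a domain, 64.3% for 161 with a narrower region and 62.7% for 52 with none. The median ratio of observed to expected CpG was 0.824, 0.870 and 0.777 for these 3 groups in H82. In H524 the ratio was 0.901, 0.840 and 0.773, against 0.580 over all RefSeq promoters. An E-box of either spelling was in 8 of the 32 promoters with an H82 domain (25%) and in 6 of the 17 with an H524 domain (35.3%), against 24.8% and 24.2% of the promoters with a narrower region in H82 and in H524 and 26.0% and 25% of those with none. These E-box shares lie near the 29.7% over all RefSeq promoters.

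NeuroD1 lay in domains more often than in narrower regions of the same line. In H82, 231 of 1219 domains overlapped a NeuroD1 region of H82 (18.95%, interval 16.8 to 21.3%), against 5.44% of narrower regions and 6.34% of all regions, and the domains exceeded the narrower regions by 13.5 points (11.4 to 15.8). In H524, 266 of 471 domains overlapped a NeuroD1 region of H524 (56.5%, 51.9 to 61.0%), against 17.0% of narrower regions and 18.0% of all regions, a difference of 39.4 points (34.9 to 43.9). A wide region has more room for an overlap, so the same was counted within 500 bp of each region's centre. On that footing H82 domains had NeuroD1 at 9.60%, against 6.42% of narrower regions and 6.63% of all, a difference of 3.18 points (1.61 to 5.00). That interval came to span 0 when regions below each list's median score were left out (0.835 points, -0.396 to 2.32) and with a minimum of 4000 bp (0.853 points, -2.81 to 7.45). H524 domains had it at 38.6%, against 19.3% of narrower regions and 19.8% of all, a difference of 19.3 points (14.97 to 23.8).

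Counted by covered length, NeuroD1 overlaps were not more frequent in domains, but this count favours narrow regions. Any overlap of at least 1 bp counted in full, so NeuroD1 regions that only touch an edge add more per Mb where regions are short. No correction was made for this, so these values cannot show whether NeuroD1 is denser in domains or not. H82 domains held 71.8 NeuroD1 overlaps per Mb, against 80.9 per Mb of narrower H82 regions, and H524 domains held 263 per Mb, against 271 per Mb of narrower H524 regions. Score, the highest among a region's summits, moved with width as well. The median domain was at the 91.1 percentile of scores in H82 and the 90.2 percentile in H524, against 48.5 and 47.0 for narrower regions. The part of score in the NeuroD1 shares was not tested.

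The share with NeuroD1 anywhere in the region was mostly higher in wider regions, also among the domains, and a wide region has more room for an overlap. In H82 the overlap was 3.54% under 500 bp, 17.2% from 2000 bp, 14.8% from 2500 bp, 22.7% from 3000 bp and 30.8% (33 of 107) at 4000 bp or more. Around the centre the H82 share was 5.67% under 500 bp and 10.6%, 7.39%, 10.8% and 7.48% in the 4 domain widths, whose intervals overlap one another. In H524 the overlap was 10.1% under 500 bp and 51.6%, 58.1%, 65.7% and 81.8% (18 of 22) in the domain widths. The H524 centre share was 14.2% under 500 bp and 38.3%, 34.3%, 44.8% and 45.5% in the domain widths. The intervals of these 4 domain widths overlap one another as well, and that of the widest (10 of 22) is 24.4 to 67.8%.

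**Figure D4:**
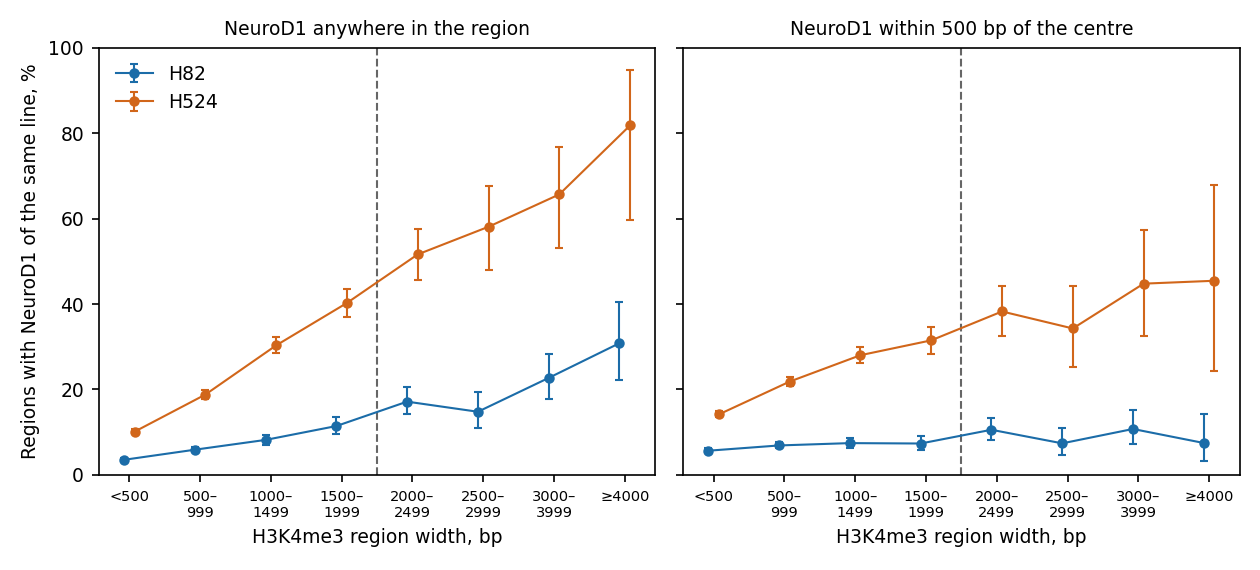
Share of H3K4me3 regions with a NeuroD1 region of the same line (y axis, %) by region width (x axis, bp), anywhere in the region (left) and within 500 bp of its centre (right), with 95% intervals and the dashed line at the domain minimum. On the left the highest shares are in the widest regions, at 30.8% in H82 and 81.8% in H524, while around the centre H82 stays between 5.67 and 10.8% and H524 goes to 45.5% in the widest regions.

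The lines cannot be set against one another on NeuroD1 without the length of their lists, which was 3854 regions in H82 and 20593 in H524. The share of domains with NeuroD1 was 18.95% in H82 and 56.5% in H524, which is -37.5 points for H82 minus H524 (-42.4 to -32.5). With the H524 NeuroD1 list limited to its 3854 highest-scoring regions, 9.55% of H524 domains had NeuroD1 (7.05 to 12.6%), which is below the H82 share. That limit changed the length and the lowest score of the H524 list at once and left the H82 list whole, and which of these moved the share was not tested. With that limit the H524 domains exceeded the narrower regions around the centre by 2.30 points (0.588 to 4.72), in place of 19.3.

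NeuroD1 regions in domains were placed over the whole width. Of 250 overlaps in H82, the NeuroD1 centre was nearer to the domain's centre than to its edge in 44.4%, nearer to an edge in 43.2% and outside the domain in 12.4%. Of 325 overlaps in H524 the shares were 51.4%, 35.4% and 13.2%. The NeuroD1 regions concerned were wider than their lists, with a median of 468.5 bp against 415.5 bp in H82 and 614 bp against 470 bp in H524. They filled a median of 16.6% of the H82 domain and 22.9% of the H524 domain. At least 2 NeuroD1 regions lay in 14 H82 domains and 48 H524 domains.

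The domains that held the most NeuroD1 regions were few. In H82 they were OTX2 with 5, the place at 128342247 on chromosome 8 with 3, H2AC6, a histone H2A gene (2069 bp), with 3, while 11 domains held 2 each, among them the chromosome 17 place, RTN1 and SIX3. In H524 they were OTX2 with 5, PVT1 with 4, and CDKAL1 (inside the gene, 4469 bp), GSK3B, a kinase gene of Wnt signalling (4122 bp), and RNASE4, a secreted ribonuclease gene (3969 bp), with 3 each. The remaining 3 of the 6 H524 domains with 3 NeuroD1 regions were at CDKN2C, in INSM1 and at SSTR2, and were named after their values had been seen. SSTR2, a somatostatin receptor gene, had a domain of 2386 bp in H524 and one of 2239 bp without NeuroD1 in H82. The domains held 6.41% of all H82 NeuroD1 regions and 1.57% of all H524 NeuroD1 regions, so nearly all NeuroD1 regions lay elsewhere.

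By class, the H82 domains with NeuroD1 were 37 of those with an H524 domain (20.9%), 167 of those with narrower H524 regions (18.4%) and 27 of those with none (20.5%). The first and last differed by 0.449 points, with an interval of -8.90 to 9.35 that spans differences in either direction. With a minimum of 4000 bp in both lines, which also changed the classes, the difference was 46.9 points (6.20 to 71.2). Of the 107 H82 domains left, 9.35% then had an H524 domain and 12.1% had no H524 region. In H524, at the 2000 bp minimum, the counts were 116 of the domains with an H82 domain (65.2%), 141 of those with narrower H82 regions (56.0%) and 9 of those with none (22.0%). There the first exceeded the last by 43.2 points (26.8 to 55.2), and by 28.4 points (12.5 to 39.7) around the centre. With the H524 NeuroD1 list limited to the H82 length the difference was 11.04 points (0.0338 to 17.2). With the 4000 bp minimum in both lines it was -10.0 points (-40.4 to 69.8). Of the 22 H524 domains left, 45.5% then had an H82 domain and 1 had no H82 region. At the 2000 bp minimum, the narrower H524 regions also differed by class in NeuroD1 of H524. It was in 27.6% of those with an H82 domain, 23.0% of those with narrower H82 regions and 9.79% of those with none.

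NeuroD1 of the other line followed the class in both lines, among the domains and among the narrower regions. NeuroD1 of H524 lay in 536 of the 1219 H82 domains (44.0%), against 17.9% of all H82 regions. Within 500 bp of the centre it lay at 25.2% of H82 domains, against 18.7% of all H82 regions. Anywhere in the region, it was in 69.5% of the H82 domains with an H524 domain, 43.2% of those with narrower H524 regions and 15.2% of those with none. The first exceeded the last by 54.3 points (44.3 to 62.5). In narrower H82 regions the shares of these 3 classes were 33.0%, 22.9% and 8.63%. NeuroD1 of H82 lay in 46 of the 471 H524 domains (9.77%), against 3.41% of all H524 regions. Within 500 bp of the centre it lay at 4.88% of H524 domains (3.12 to 7.24%), close to the 4.50% of all H524 regions. Anywhere in the region, it was in 17.4% of the H524 domains with an H82 domain and 5.95% of those with narrower H82 regions. It was in 0 of the 41 with none, which allows a share of up to 8.60%. In narrower H524 regions the shares of these 3 classes were 8.66%, 5.05% and 0.689%.

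Taking both NeuroD1 lists, 160 H82 domains had NeuroD1 of both lines, 71 of H82 alone, 376 of H524 alone and 612 of neither. Of the H524 domains, 40 had NeuroD1 of both lines, 226 of H524 alone, 6 of H82 alone and 199 of neither. Among the 179 domain pairs, NeuroD1 of the same line was in both members of 30, in the H82 member alone of 7, in the H524 member alone of 87 and in neither of 55.

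The domains were spread unevenly over the chromosomes, whose copy number in each line was not examined. In H82, chromosome 1 held 191 domains (15.7%), against 11.5% of narrower regions, and chromosome 2 held 149 (12.2%), against 7.89%. In H524, chromosome 14 held 66 domains (14.01%, 11.01 to 17.5%), against 4.38% of narrower regions, a difference of 9.63 points (6.77 to 13.1). The H82 share on chromosome 14 was 33 domains (2.71%), against 3.44% of narrower H82 regions. Chromosome 15 held 48 H82 domains (3.94%) and 39 H524 domains (8.28%), against 3.45% of narrower H82 regions and 3.62% of narrower H524 regions. Chromosome 12 held 95 H82 domains (7.79%, against 5.86% of narrower regions) and 14 H524 domains (2.97%, against 4.74%). Chromosome 13 held 62 H82 domains (5.09%, against 2.62%) and 12 H524 domains (2.55%, against 2.30%).

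Most chromosome 14 domains of H524 overlapped narrower H82 regions alone, as did 53.5% of all H524 domains. Of the 66, 15 overlapped an H82 domain, 41 overlapped narrower H82 regions alone and 10 none. NeuroD1 of H524 was in 45 of them (68.2%), against 56.5% of all H524 domains. NeuroD1 of H82 was in 14 of the 33 H82 domains on chromosome 14 (42.4%), against 18.95% of all H82 domains. OTX2, NKX2-1, INSM2, CHGA, KLHL28, SLC39A9 and RNASE4 were among the genes at the 66 H524 domains. Without chromosome 14, 40.2% of H524 domains overlapped an H82 domain and 54.6% had NeuroD1 of H524.

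Chromosome 10 had 20 domains in H82 and 0 in H524, which allows a share of up to 0.780% of H524 domains, and it held 3.12% of narrower H82 regions and 0.795% of narrower H524 regions. Of the 132 H82 domains with no H524 region, 13 were on chromosome 10. Chromosome 19 was poor in domains in both lines, with 27 in H82 (2.21%, against 6.02% of narrower regions) and 14 in H524 (2.97%, against 10.5%).

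**Figure D5:**
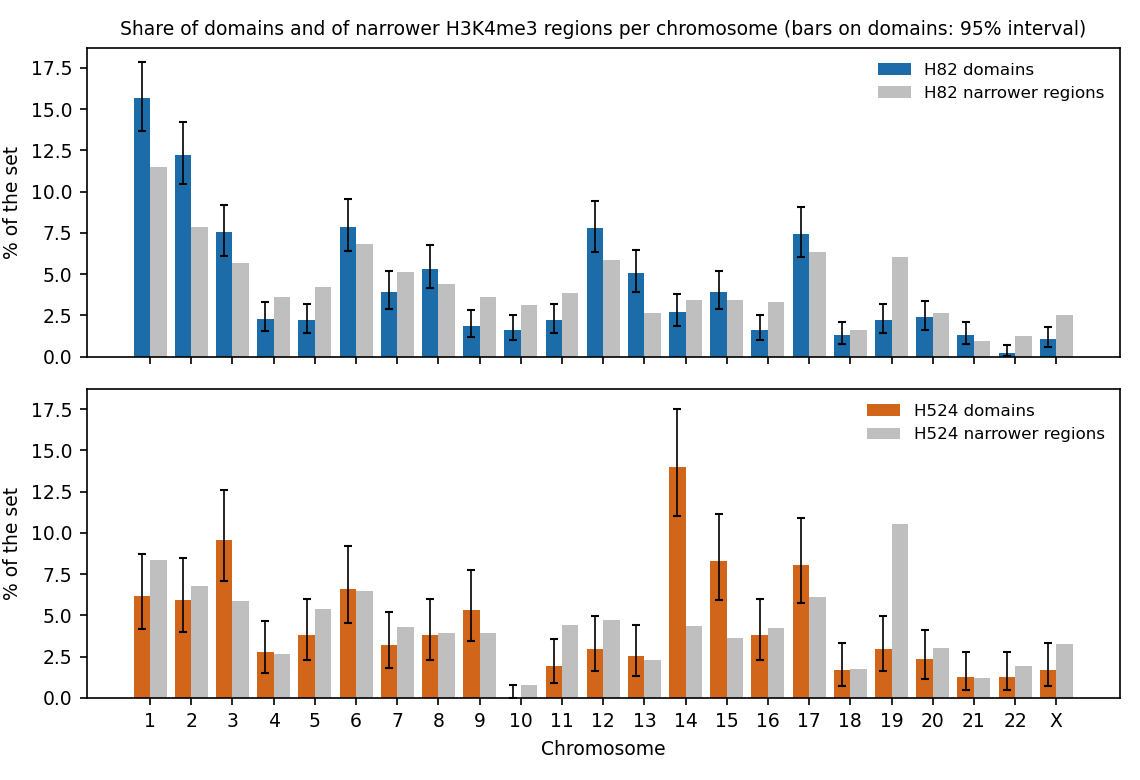
Share of domains (coloured, with 95% intervals) and of narrower H3K4me3 regions (grey) on each chromosome, as % of each set (y axis), for H82 above and H524 below. H82 domains have their highest share on chromosome 1 (15.7%), H524 domains on chromosome 14 (14.01%), and chromosome 10 has 0 H524 domains.

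Domains lay near one another in H82 in a few places. The nearest domain of the same line was a median of 324 kb away in H82 and 909 kb away in H524, and it was within 20 kb for 115 H82 domains (9.43%) and 28 H524 domains (5.94%). Groups of 3 domains within 20 kb of the next numbered 9 in H82 and 0 in H524. H82 had 1219 domains and H524 had 471, more domains lie closer together by number alone, and no correction was made for this. One of the 9 groups held SIX3, with H82 domains of 4609, 2253 and 2145 bp (chr2:45161229-45171859), whose widest H524 counterparts were 1994, 1325 and 788 bp. In 2 of these groups all 3 domains held NeuroD1 of H82, at chr12:54651046-54677940 and at chr8:128309413-128350925.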

How the data were processed

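NeuroD1 and H3K4me3 ChIP-seq peak lists of H82 and H524 were used, 1 library per antibody and line, 4 lists in all; the columns of no other sample were present. Per the submitters' processing notes, MACS2 2.1.1 was among the tools, with Bowtie 1.1.2 and Trimmomatic 0.38 before it, Picard 1.118 and SAMtools 1.9 beside them, and the build was hg19. Their settings, and whether MACS2 ran in its broad mode, were not stated there. The authors deposited 1 row per summit with a score. That score is read as a −log10 adjusted p-value, since the lowest values of the deposited lists (1.304 to 1.308) lie just above 1.301, the −log10 of 0.05. Region width depends on read depth, which the lists do not give, and on how the caller joins summits.

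Rows with identical intervals were merged and the highest score was kept (Python 3.11.15, pandas 2.3.3, scipy 1.17.1), and overlap meant at least 1 shared bp. The overlap code was tested on simulated data. Members, gene lists and comparisons were chosen with earlier results of these data known. The regions named were the 10 widest domains of each line, the 5 widest in each class, the 5 with the most NeuroD1 regions, the 3 on each side of the width minimum, and the domains at genes of the lists on subtype and neurogenic factors, the MYC family, neuroendocrine genes and other cell types; other list genes were named as examples after their values were seen. Some genes that this rule names are not reported here.

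Gene starts in hg19 came from a hand-written table of 346 genes (303 of the 338 on the lists), rounded to 1 kb, written from general knowledge; some genes were added after the widest regions were seen. RefSeq (GRCh38.p14) placed 346 of 346 on the same chromosome and put 0 of 323 neighbouring pairs in another order, which does not check positions to 1 kb. RefSeq promoters were matched by symbol for 265 genes. An hg19 genome and annotation were not used here, so domain sequence and annotated starts were not analysed. Alternatives varied the width minimum, the joining of close regions, the overlap rule, the score, the chromosomes and the list lengths.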

Additional observations from a re-analysis of the deposited data

How the results depend on the processing

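The 16 summary values were recomputed under 12 alternatives, giving 130 values. Of these, 74 moved by less than their interval or, for counts, by less than 1.5 times, and 55 moved further. The remaining 1 changed sign although the reported interval held positive differences alone. It was the NeuroD1 difference in H524 between domains with an H82 domain and those with none, at 4000 bp. The same difference in H82, whose reported interval spans either direction, also changed sign under some alternatives. Those changes are among the 74. They came with the 1500 bp minimum, with joining at 500 or 1000 bp and with the median score limit. The removal of chromosome 14 was chosen after seeing the data. No paired analysis was possible because each group has 1 library. Shares at annotated starts and base composition of the domains were not run under any width, since they need hg19 annotation and sequence. Depth per library is unknown, so a depth limit on widths or on NeuroD1 cannot be given, and no alternative replaces a second library. Gene names were not varied.

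A minimum of 1500, 3000 or 4000 bp gave 2320, 358 or 107 domains in H82 and 1328, 89 or 22 in H524. The share with a domain in the other line was then 24.9, 10.1 or 9.35% in H82, and 43.0% at 1500 bp and 45.5% at 4000 bp in H524. The share with no region was 13.2% at 1500 bp and 12.8% at 3000 bp in H82, and 12.4, 5.62 or 4.55% in H524. NeuroD1 of the same line was in 15.4, 25.1 or 30.8% of H82 domains and 46.0, 69.7 or 81.8% of H524 domains. Around the centre, domains exceeded narrower regions by 0.853 points (-2.81 to 7.45) at 4000 bp in H82, and by 25.2 points at 3000 bp and 25.7 points at 4000 bp in H524. Between domains with a domain in the other line and those with none, the NeuroD1 difference in H82 was 13.2 points at 3000 bp and 46.9 points (6.20 to 71.2) at 4000 bp. In H524 it was 22.3 points at 1500 bp and -10.0 points at 4000 bp, where 22 domains were left.

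Joining regions closer than 500 or 1000 bp gave 2060 or 2866 domains in H82 and 1082 or 1725 in H524. The share with a domain in the other line was 24.9 or 32.1% in H82 and 47.1 or 53.3% in H524. With 1000 bp, 13.4% of H524 domains had no H82 region and 50.7% had NeuroD1.

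With an overlap of at least 50 percent of either region, NeuroD1 was in 16.6% of H82 and 51.6% of H524 domains, and with a distance of up to 1 kb in 23.1 and 62.2%. With regions below each list's median score left out, domains with no counterpart were 27.0% in H82 and 16.7% in H524, and those with NeuroD1 9.88 and 30.2%. Around the centre, domains exceeded narrower regions by 0.835 points (H82, -0.396 to 2.32) and 5.77 points (H524), and the class difference in H524 was 22.4 points. As many of the widest regions in each line gave 19.3 and 19.7% with a domain in the other line, and 13.2% of H82 domains with none. With the H524 NeuroD1 list limited to the H82 length, the share in H524 was 9.55%, the centre difference 2.30 points and the class difference 11.04 points. The causes of these shifts were not tested.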
